A study of Mus musculus with 6 samples.

Results

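The genes for 9 structural microtubule-associated proteins (MAP1A, MAP1B, MAP1S, MAP2, MAP4, MAP7, MAP7D1, MAP9 and MAPT) were followed in RNA-seq of 77-5 cells with and without induction of Rbfox1. They were taken from the deposited isoform tables by gene symbol and made up 9 of 58870 genes, with 110 of 208621 isoforms. The members were chosen by symbol, with their fold changes and isoform percentages in the same comparison already known, so all their values and calls below are a description of these samples and support nothing beyond them. The 77-5 cells are a single clone of T-REx-293, a HEK293-derived human embryonic kidney line that expresses the tetracycline repressor. All 6 samples carried a knocked-in Rbfox1 under doxycycline control and a large minigene of mouse Ntrk2, the gene for the receptor TrkB, so the control samples differed from the parental line too. The 3 No Dox samples were untreated, and the 3 Dox samples received doxycycline (Dox) for 48 h, at 0.5 mg/ml as the labels write it, whereas the figure legends of the study write µg/ml. The effects of doxycycline, of Rbfox1 and of what else changed with them cannot be told apart here, since all differed between the groups. The labels name mouse as the organism, while the cells and the transcripts in the tables are human.

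Microtubules are hollow filaments of alpha and beta tubulin that grow and shrink at their ends. Structural microtubule-associated proteins bind along the lattice, stabilise or bundle it, and influence where the motors kinesin and dynein can walk. MAP2 and tau, the product of MAPT, are best known from neurons, where MAP2 marks dendrites and tau is found mainly in axons, whereas MAP4 is their relative in most other cells. The 3 genes of this MAP2/tau family are known for alternative splicing, which gives short forms of MAP2 without the large central region, forms of tau that differ in an N-terminal insert and in the number of microtubule-binding repeats, and long forms of MAP4 in muscle and nerve. Rbfox1 binds RNA and directs the splicing of many transcripts in brain, heart and muscle.

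Total expected counts, RSEM's estimates of the fragments from each transcript, were between 59822964 and 65774104 per sample, and the 9 genes held between 0.0695% and 0.0768% of them. RBFOX1 was between 6.92 and 8.42 TPM (transcripts in a fixed total, a scale that takes transcript length into account) in No Dox and between 186.36 and 189.75 TPM in Dox. Its paralog RBFOX2, which binds the same motif, fell from between 46.94 and 50.05 TPM to between 16.15 and 17.9 TPM, so the groups differed in it as well, and its part in the results below was not tested. Nothing in the sources used here says that the samples of a group were separate cultures, so every call measures only the spread between these samples, which may be technical. With 3 samples against 3, an exact permutation test gives no p under 0.1. Groups that do not overlap are therefore only described below, and the share of all genes or isoforms without overlap was not counted. Of the 7 markers listed for HEK293 cells, each was at 1 TPM or more in at least one group. Summed over the list, they were between 1176 and 1188 TPM in No Dox and between 1047 and 1081 TPM in Dox, and 5 of the 7 fell while 1 (NEFM) rose. The 7 neuronal markers summed to between 18.9 and 21.2 TPM in No Dox and between 22.8 and 24.1 TPM in Dox, with NEUROD1 at 0.09 TPM or less in every sample. Of them 3 rose and 0 fell. The neurofilament genes NEFL and NEFM were placed in the HEK293 list, so these neuronal values hold only for the list as chosen. NEFL was at 65.5 ± 1.11 TPM in No Dox and 52.5 ± 0.62 TPM in Dox, and NEFM at 0.55 ± 0.09 and 1.15 ± 0.05 TPM. The 4 fibroblast markers summed to between 8.59 and 8.99 TPM and between 11.5 and 12.1 TPM, of which 2 rose, while the endothelial markers stayed at 0.02 TPM or less. The glial markers (4.93 to 6.06 and 4.59 to 5.34 TPM) and the leukocyte markers (9.09 to 10.0 and 9.27 to 10.8 TPM) overlapped between the groups in their sums, with 1 glial marker (AQP4) higher, 1 (MBP) lower and 0 leukocyte markers called. Beside these marker counts, 24.9% of all genes tested were called higher and 26.5% lower, so calls in lists this small are not read further. The part of these changes in the results below was not tested, and in such bulk samples fewer cells of a type and less RNA per cell cannot be told apart.

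All 9 genes passed the filter on low counts. With edgeR on gene counts, 6 of the 9 passed an adjusted p of 0.05 over all genes, where 51.4% of the 18264 genes tested did. MAP1A, MAP2, MAP4 and MAP7D1 rose in counts, beside 24.9% of all genes tested, although MAP4 turned lower once transcript length was accounted for, and MAP1B and MAP7 fell, beside 26.5%. Apart from MAP2 the changes were small. The median absolute log2 fold change was 0.14 over the 9 genes and 0.18 over all genes tested, and the medians with sign were 0.02 and 0.00.

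Being scaled for length, TPM also allows the genes to be ordered. In No Dox the order was MAP7D1 (65.9 ± 3.27 TPM, mean ± SD, n = 3), MAP4 (59.3 ± 2.67), MAP1S (37.9 ± 1.84), MAP1B (30.8 ± 0.78), MAP7 (20.4 ± 0.84), MAP9 (11.2 ± 1.17), MAPT (5.93 ± 0.41), MAP1A (5.53 ± 0.10) and MAP2 (1.55 ± 0.28). Of the neighbours in this order, MAPT and MAP1A overlapped in their samples and the others did not. In Dox the first 6 places were taken by the same genes in the same order, without overlap. The last 3 places were then held by MAP1A (6.33 ± 0.42 TPM), MAP2 (6.13 ± 0.11) and MAPT (5.71 ± 0.50), and each overlapped with its neighbour. MAP2, alone at the bottom in No Dox, thus stood among MAP1A and MAPT in Dox.

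**Figure D1:**
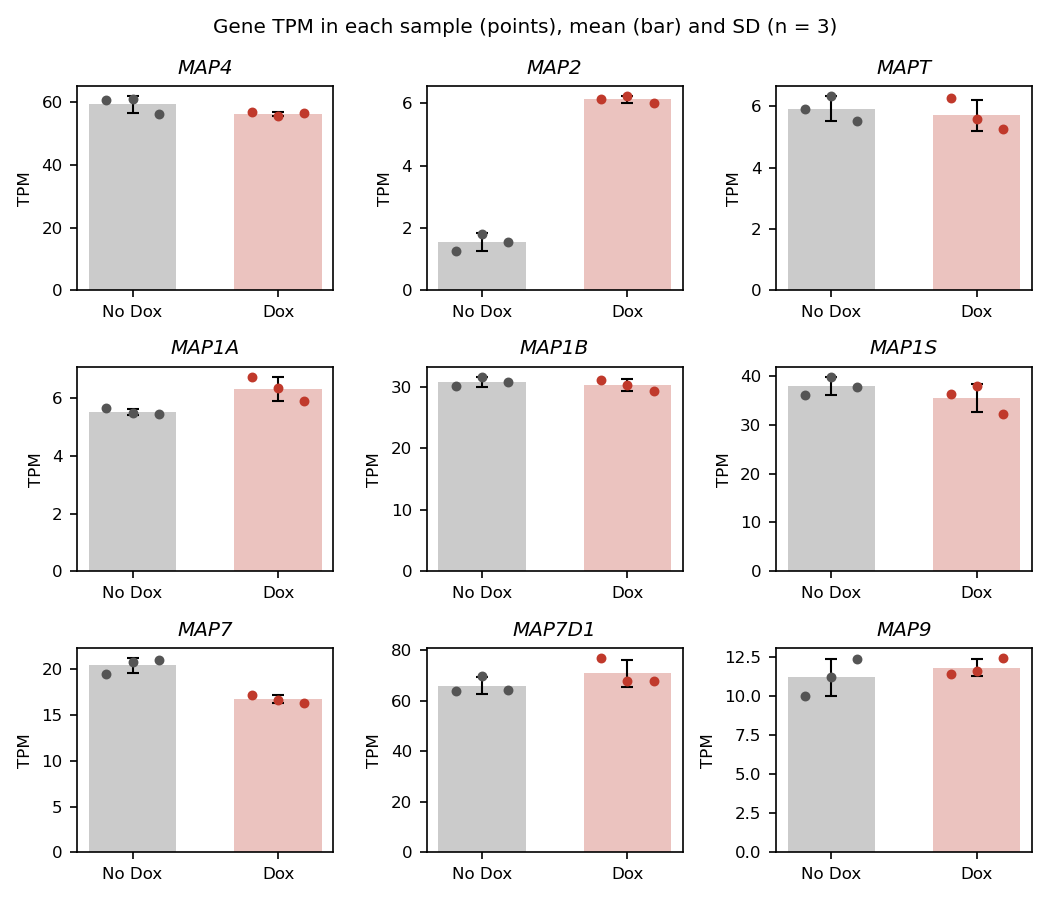
Gene-level abundance in TPM (y axis, from 0, with a scale for each gene) of the 9 genes in No Dox (grey) and Dox (red). Points are the single samples, bars the mean and error bars the SD (n = 3). MAP2 and MAP1A lie higher and MAP7 lower in every Dox sample than in any No Dox sample, and the other genes overlap.

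MAP2 (ENSG00000078018.19), the dendritic member of the MAP2/tau family, showed the largest change of the 9. It was at 1.26, 1.82 and 1.56 TPM without doxycycline and at 6.14, 6.24 and 6.02 TPM with it, from 239, 220 and 215 expected counts against 991, 1017 and 1031. The groups were far apart, and the Dox samples lay within a narrow range. The log2 fold change by edgeR was 2.14 ± 0.07 (SE), a 4.39-fold rise, and 1.98 ± 0.11 with an offset for transcript length. Of the 16 MAP2 isoforms in the tables, 6 were at 0 in all samples and 4 had enough counts to be tested.

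The rise of MAP2 was spread over its isoforms of different length rather than held by 1 of them. MAP2-205 (ENST00000392194.5, 5303 nt) was at 0.6, 0.56 and 0.56 TPM in No Dox and at 2.14, 2.52 and 2.2 TPM in Dox, and its log2 fold change by limma-voom was 1.98 ± 0.13. The short MAP2-201 (ENST00000199940.10, 2241 nt) was at 0.46, 0.67 and 0.49 TPM and then at 1.66, 2.17 and 1.59 TPM, a log2 fold change of 1.72 ± 0.23. Both passed the isoform threshold, and for each the lowest Dox sample lay above the highest No Dox sample. Their isoform percentages, the percent of a gene's abundance that RSEM gave to an isoform, overlapped between the groups. That of MAP2-205 was 38.0 ± 8.55% in No Dox and 37.3 ± 2.89% in Dox, and that of MAP2-201 was 35.0 ± 2.80% and 29.4 ± 4.66%.

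The largest change in isoform percentage within MAP2 was that of MAP2-207 (ENST00000447185.5, 5472 nt), at 0, 8.06 and 4.65% in No Dox and 13.04, 10.51 and 11.89% in Dox. Its abundance was 0, 0.15 and 0.07 TPM against 0.8, 0.66 and 0.71 TPM. The groups did not overlap, but the isoform missed the isoform threshold, with a log2 fold change of 4.74 ± 1.22. Without the first No Dox sample, in which it was at 0, the value was 2.79 ± 0.35 and passed. MAP2-202 (9711 nt), the longest of the MAP2 isoforms tested, was at 0.12, 0 and 0.04 TPM and then at 0.28, 0.32 and 0.36 TPM, and also missed the threshold. The short MAP2-213, MAP2-214 and MAP2-215, at 0.7 TPM or less in every sample, had too few counts for a test. Isoform usage, which compares the fold change of each isoform with that of its gene's other isoforms, passed the threshold for 27.5% of the 12328 genes tested by limma diffSplice. On simulated data this test made more false calls than its threshold allows, so the usage calls here are not held to that error rate. MAP2 was not among them, although it passed when isoforms under 10 percent were left out.

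**Figure D2:**
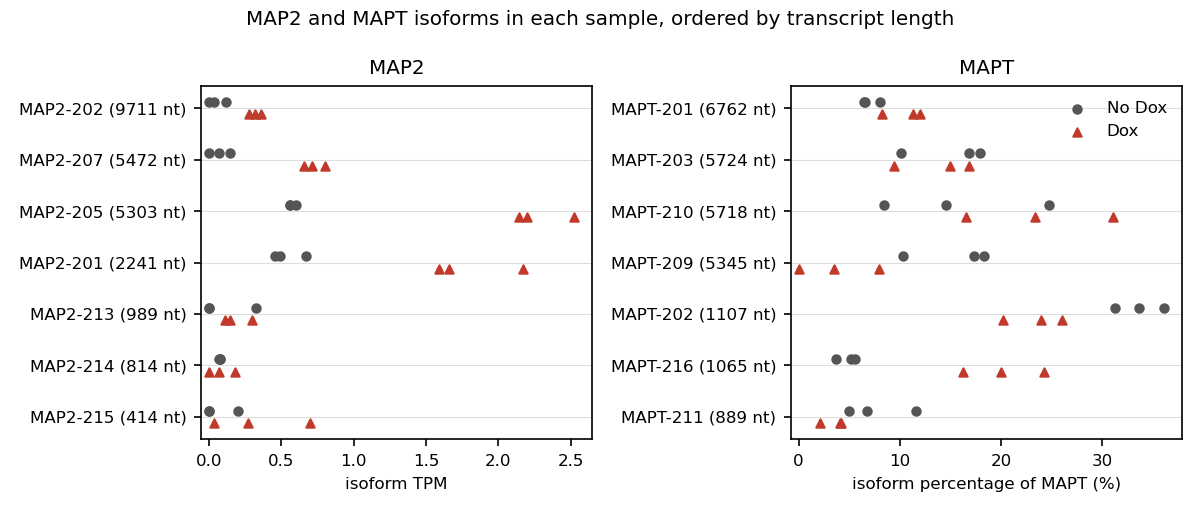
Isoforms of MAP2 by abundance (left, TPM) and of MAPT by isoform percentage (right, %), each ordered by transcript length, in the 3 No Dox (grey circles) and 3 Dox (red triangles) samples. MAP2-205, MAP2-201, MAP2-207 and MAP2-202 are higher in every Dox sample. Within MAPT the percentages of MAPT-216 and MAPT-201 are higher and those of MAPT-202, MAPT-209 and MAPT-211 are lower in every Dox sample.

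MAP4 (ENSG00000047849.21), the member of the family made in most cell types, changed little as a gene and greatly in its isoforms. At the isoform level, MAP4-204 (ENST00000395734.7, 5590 nt) and MAP4-202 (ENST00000360240.10, 5142 nt) fell, and the longer MAP4-207 (ENST00000426837.6, 8920 nt) rose and took the first place. MAP4-208, MAP4-203 and MAP4-210, all of them shorter than MAP4-202, rose as well. These 6 were 6 of the 8 MAP4 isoforms tested, and of the 52 isoforms of all 9 genes with enough counts, 9 were called (17.3%), beside 12.6% of the 72438 isoforms tested. Of the 9 calls, 7 were higher and 2 lower in Dox, beside 6.19% and 6.44% of all isoforms tested. Among the higher calls, MAP4-210 passed the filter on low counts through the Dox samples alone. Usage of MAP4 isoforms passed the threshold by diffSplice and under every alternative to it that was run.

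The isoform percentage of MAP4-207 was 2.54, 2.47 and 2.79% in No Dox, against 38.83, 40.21 and 38.85% in Dox. In abundance it went from 1.54, 1.51 and 1.57 TPM to 22.06, 22.32 and 21.92 TPM. Samples of a group differed by little and the groups were far apart. The log2 fold change of its counts was 3.83 ± 0.05 by limma-voom, a 14.2-fold rise. Since a long transcript yields more fragments, its share of MAP4's expected counts was larger still, at 4.78 ± 0.20% in No Dox and 60.8 ± 0.55% in Dox.

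MAP4-204 held the largest percentage in No Dox, at 48.46, 47.62 and 52.66%, and was at 16.34, 15.48 and 17.53% in Dox. Its abundance was 29.4 ± 0.26 TPM and 9.25 ± 0.65 TPM, a log2 fold change of -1.68 ± 0.05. MAP4-202 was at 24.3, 23.57 and 22.08% in No Dox and at 4.02, 4.57 and 3.05% in Dox. Both isoforms were lower in every Dox sample, and MAP4-202 changed more, with a log2 fold change of -2.70 ± 0.16 and 13.9 ± 1.25 TPM against 2.18 ± 0.42 TPM.

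Of the shorter isoforms, MAP4-208 (3724 nt) was at 17, 18.38 and 17.72% in No Dox and at 25.44, 26.04 and 23.27% in Dox, with a log2 fold change of 0.40 ± 0.07. MAP4-203 (2282 nt) was at 1.47, 1.1 and 2.1% and then at 8.65, 7.91 and 9.34%, with a log2 fold change of 2.43 ± 0.20. Every Dox sample of both lay above every No Dox sample. MAP4-210 (2743 nt) had 2 counts in all No Dox samples together and 155 in the Dox samples, a ratio of rates of 78.0 with a 95% interval of 21.2 to 649 (Clopper-Pearson, for counting error only). It remained under 1% of the gene, and its call was lost when any one sample was left out, with log2 fold changes between 5.46 and 6.65. It passed the filter on low counts through the Dox samples alone, where it was high, so a large ratio was bound to follow. The ratio and its interval are only a description.

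**Figure D3:**
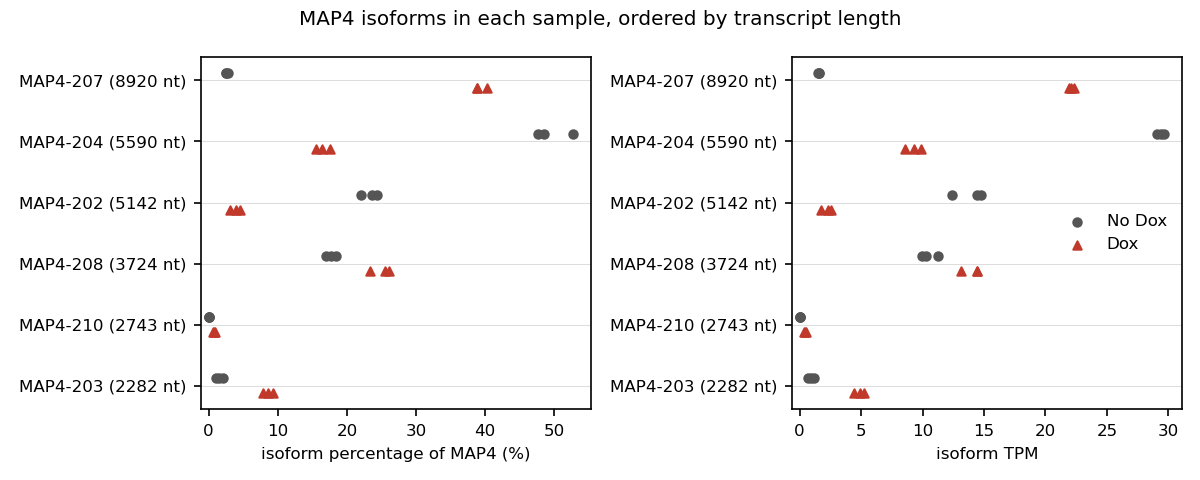
Isoform percentage (left, %) and abundance (right, TPM) of the 6 MAP4 isoforms named in the text, ordered by transcript length from 8920 nt at the top to 2282 nt at the bottom, in the 3 No Dox (grey circles) and 3 Dox (red triangles) samples. MAP4-207 moves from under 3% to between 38.83 and 40.21%, and MAP4-204 and MAP4-202 move the other way.

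The mean MAP4 transcript, weighted by TPM, was 4887, 4841 and 5054 nt long in No Dox, against 5809, 5904 and 5769 nt in Dox. These lengths did not overlap and their means differed by 900 nt. The direction of the gene-level change of MAP4 depended on whether length was taken into account. In expected counts, MAP4 was at 12985, 12231 and 11989 in No Dox and at 14410, 13248 and 14407 in Dox, and the log2 fold change by edgeR was 0.14 ± 0.03. In TPM it was at 60.61, 61.12 and 56.26 and at 56.79, 55.5 and 56.42, with overlapping groups. With an offset for transcript length, an alternative added after the data were seen, the log2 fold change was -0.11 ± 0.03 and the gene was called lower.

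With the offset, 4 of the 9 genes were called, beside 40.1% of all genes tested. MAP2 and MAP1A were called higher, beside 19.1% of all genes, and MAP7 and MAP4 lower, beside 21%. MAP7D1 and MAP1B lost their calls. The other members differed in mean transcript length by less than MAP4. For MAP7D1 it was 2116 ± 70.4 nt in No Dox and 2276 ± 79.9 nt in Dox, and for MAP2 3565 ± 673 nt and 3926 ± 165 nt, with overlap between the groups for MAP2.

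**Figure D4:**
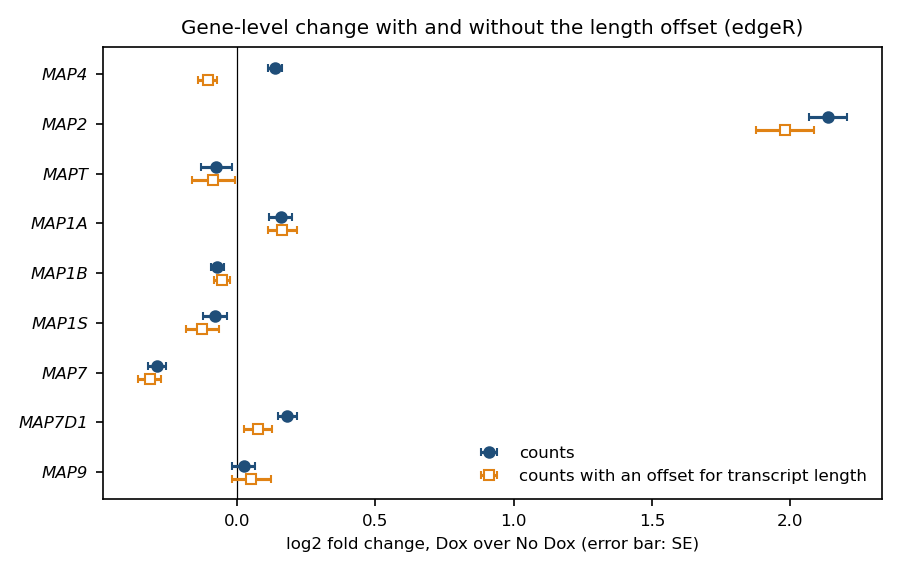
Gene-level log2 fold change, Dox over No Dox (x axis), of the 9 genes by edgeR on counts (filled circles) and with an offset for transcript length (open squares). Error bars are the SE (3 samples per group). MAP4 lies at 0.14 without and at -0.11 with the offset, while MAP2 stays near 2 in both.

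MAPT (ENSG00000186868.15), which encodes tau, was not called as a gene. It was at 5.91, 6.35 and 5.53 TPM in No Dox and at 6.26, 5.6 and 5.28 TPM in Dox, with overlapping groups and a log2 fold change of -0.07 ± 0.06. Of its 18 isoforms 9 were at 0 in all samples and 6 could be tested. None of the 6 passed the isoform threshold by limma-voom, whereas MAPT passed the usage threshold. This usage call, with an adjusted p of 0.012 by limma diffSplice, was lost without the first or the second Dox sample (0.16 in both cases). By edgeR's diffSpliceDGE the adjusted p was 0.21.

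The largest change in percentage within MAPT was that of MAPT-216 (ENST00000576238.1, 1065 nt), at 3.74, 5.15 and 5.54% in No Dox and 24.27, 20.03 and 16.27% in Dox. Its abundance was 0.22, 0.33 and 0.31 TPM against 1.52, 1.12 and 0.86 TPM, with no overlap. It was short, so it held only 1.25 ± 0.24% and 5.20 ± 1.15% of MAPT's counts. The log2 fold change was 1.96 ± 0.50, which missed the threshold by limma-voom and passed it by edgeR and DESeq2, and without the third Dox sample (2.16 ± 0.43). MAPT-202 (ENST00000334239.12, 1107 nt) went the other way, at 31.27, 36.09 and 33.65% against 20.25, 24 and 26.06%, with a log2 fold change of -0.59 ± 0.18. MAPT-209 (ENST00000446361.7, 5345 nt) was at 10.27, 18.31 and 17.29% against 3.45, 7.96 and 0%. Neither passed the isoform threshold. In both every Dox sample lay under every No Dox sample, which is only a description with so few samples. Among the other long forms, MAPT-201 (6762 nt) was at 7.03 ± 0.92% and 10.5 ± 1.99%, MAPT-210 (5718 nt) at 15.9 ± 8.22% and 23.7 ± 7.27%, and MAPT-203 (5724 nt) at 15.0 ± 4.22% and 13.7 ± 3.86%. MAPT-201 was higher in every Dox sample without passing the threshold, while MAPT-210 and MAPT-203 overlapped and varied widely within a group. MAPT-211 (889 nt), with 7.78 ± 3.41% and 3.51 ± 1.17%, was also lower in every Dox sample but had too few counts for a test. The mean MAPT transcript was 3587 ± 94.1 nt in No Dox and 3629 ± 82.5 nt in Dox. Of genes known to overlap MAPT, STH had at most 3 counts, MAPT-IT1 at most 2 and MAPT-AS1 0 in any sample, and no other neighbour was examined.

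Of the MAP1 family, whose large precursors are cut into a heavy and a light chain, MAP1A (ENSG00000166963.13) was at 5.65, 5.49 and 5.46 TPM in No Dox and at 6.74, 6.35 and 5.9 TPM in Dox. It rose by a log2 fold change of 0.16 ± 0.04, with no overlap. MAP1B (ENSG00000131711.15), prominent in growing axons, fell by 0.07 ± 0.02 on the log2 scale, a change smaller than that of any other called member. Its TPM values of 30.8 ± 0.78 and 30.3 ± 0.91 overlapped, and its call was lost without the second No Dox sample (adjusted p = 0.065 by edgeR) and without the second Dox sample (0.054), with the log2 fold change still at -0.07 in both. Scaled by library size only, the value was -0.02 and the adjusted p 0.4. MAP1S, the small member of the family, was not called (log2 fold change -0.08 ± 0.04, 37.9 ± 1.84 and 35.4 ± 2.89 TPM), but was called lower without the first Dox sample (-0.12 ± 0.04).

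Transcripts of the MAP1 family were divided in nearly the same way in both groups. MAP1B-201 (11790 nt) held 95.6 ± 1.72% of its gene in No Dox and 94.9 ± 1.44% in Dox, and MAP1A-201 (10266 nt) held 92.8 ± 2.55% and 93.7 ± 1.12%. The rest of MAP1A was MAP1A-202 (10553 nt). MAP1S-201 (3288 nt) was at 51.3 ± 3.56% and 53.5 ± 2.58%, MAP1S-210 (448 nt) at 30.7 ± 4.61% and 26.4 ± 2.67%, and MAP1S-212 (947 nt) at 5.69 ± 2.33% and 6.62 ± 1.44%. All of these percentages overlapped between the groups, and none of the isoforms or usage tests of the 3 genes was called, except MAP1A-201, which rose without the third Dox sample (log2 fold change 0.25 ± 0.05, against 0.19 ± 0.06 with it).

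MAP7 and MAP7D1 bind along microtubules and recruit kinesin-1. The pair differed in sign. MAP7 (ENSG00000135525.18) was at 19.41, 20.78 and 20.94 TPM in No Dox and at 17.17, 16.62 and 16.33 TPM in Dox, and fell by 0.29 ± 0.03 on the log2 scale. Every Dox sample was under every No Dox sample. MAP7D1 (ENSG00000116871.15) was at 63.93, 69.67 and 64.08 TPM and at 76.98, 67.61 and 67.9 TPM, which overlap. In counts it rose by a log2 fold change of 0.18 ± 0.03, and with the length offset the value was 0.08 ± 0.05 and was not called.

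Among MAP7D1 isoforms, MAP7D1-203 (ENST00000373150.8, 3238 nt) rose by a log2 fold change of 0.57 ± 0.09, from 12.99, 10.75 and 12.92 TPM to 17.92, 19.92 and 17.25 TPM. Its percentage was 20.32, 15.43 and 20.16% in No Dox and 23.28, 29.46 and 25.41% in Dox, without overlap. MAP7D1-201 (3456 nt) was lower in every Dox sample, at 5.82 ± 0.21% and 3.78 ± 0.66%, but missed the threshold, which it passed without the first Dox sample (log2 fold change -0.74 ± 0.11, against -0.54 ± 0.16 with it). MAP7D1-202 (1797 nt), with 38.2 ± 0.76% and 37.9 ± 1.76%, MAP7D1-204 (3324 nt), with 11.8 ± 1.48% and 13.5 ± 0.76%, and MAP7D1-205 (959 nt), with 19.0 ± 2.75% and 14.4 ± 1.85%, overlapped. MAP7D1 passed the usage threshold, and lost it with diffSpliceDGE.

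The isoforms of MAP7 that reached 5% in a group varied widely between samples of a group. MAP7-206 (2317 nt) changed most in percentage, at 4.34, 10.53 and 23.74% in No Dox and 8.72, 0 and 2.62% in Dox. MAP7-202 (4375 nt) was at 18.7 ± 6.73% and 26.0 ± 4.25%, and MAP7-205 (2744 nt) at 6.64 ± 6.16% and 12.6 ± 5.18%. MAP7-201 (4152 nt), the main form, was at 56.4 ± 7.39% and 54.4 ± 3.64%. The percentages of these 4 overlapped, and no MAP7 isoform was called, though MAP7-201 was lower in TPM in every Dox sample (11.4 ± 1.00 and 9.09 ± 0.82 TPM). MAP7-209 (4497 nt), named after its values were seen, had 237.59, 81.07 and 111.92 counts in No Dox and 0, 0.43 and 0 in Dox. Its groups did not overlap, although it missed the isoform threshold by limma-voom and was only 3.72 ± 2.20% of MAP7 in No Dox. It passed the filter on low counts through the No Dox samples alone, where it was high, so the gap is only a description. MAP9, a protein of spindle and cilium microtubules, was not called either, with 11.2 ± 1.17 and 11.8 ± 0.56 TPM and a log2 fold change of 0.02 ± 0.04. Its isoforms MAP9-201 (31.8 ± 4.37% and 31.2 ± 0.76%), MAP9-204 (32.8 ± 3.05% and 38.2 ± 2.15%), MAP9-205 (11.0 ± 2.64% and 11.9 ± 2.07%) and MAP9-209 (18.1 ± 1.01% and 17.1 ± 1.71%) all overlapped in percentage.

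**Figure D5:**
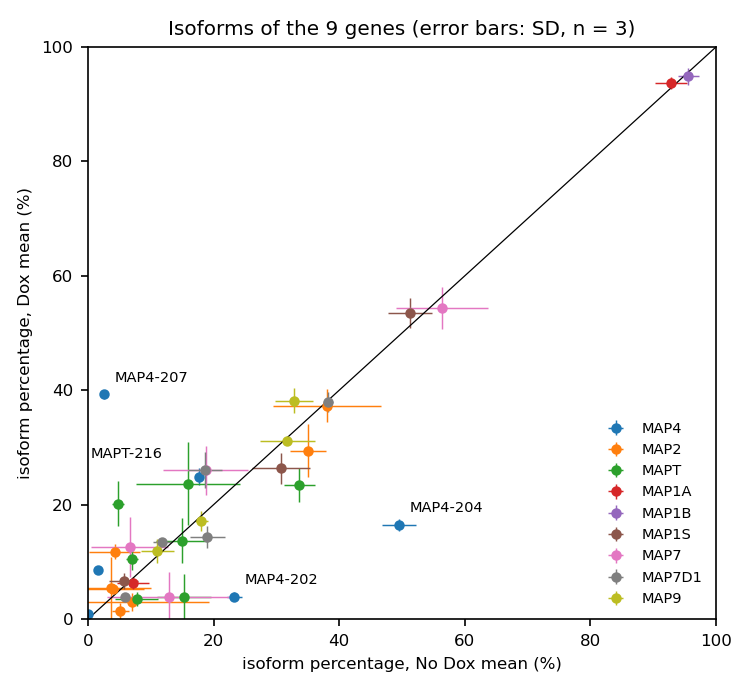
Mean isoform percentage in No Dox (x axis, %) against Dox (y axis, %) of the 39 isoforms named in the text, coloured by gene, with error bars of 1 SD (n = 3) and the line of equal percentage. MAP4-207, MAP4-204, MAP4-202 and MAPT-216 lie far from the line, while the main forms of MAP1A and MAP1B lie near 90 to 100% on both axes.

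Genes whose log2 CPM profile over the 6 samples was closest to that of MAP2, by Euclidean distance among 15178 genes, were ACTN2 (distance 0.143), AL513318.2 (0.273) and SSPN (0.322). The closest to MAP4 were TPRG1L (0.0226), RPL13A (0.0291) and PARM1 (0.0296), and to MAPT MIEF2 (0.0464), IQSEC1 (0.0488) and ZC3H7B (0.0501). With only 2 groups, a small distance mostly reflects a like fold change, in log2 2.20, 1.95 and 1.89 for the genes near MAP2. MAP4 and MAPT changed little as genes, and so did those near them. Shared regulation was not tested.

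The members' setting was examined with 6 lists of other microtubule genes, 91 of whose 92 genes were in the tables. Of 80 tested, 25 rose and 24 fell (61.2%, beside 51.4% of all genes tested). Of the tubulins, 0 of 12 tested genes were called higher and 10 lower (7 when scaled by library size only), beside 24.9% and 26.5% of all genes tested. The tubulins had a median log2 fold change of -0.17, beside 0.00 over all genes. Among them TUBB3, the beta tubulin used as a neuronal marker, fell by 0.48 ± 0.05 on the log2 scale, from 15.1 ± 0.78 to 11.0 ± 0.38 TPM. TUBB2B (-0.41 ± 0.03), TUBB4A (-0.34 ± 0.05) and TUBA1C (-0.26 ± 0.02) also fell in log2 fold change. Tubulin genes are near-identical in sequence, so reads may have been exchanged between them.

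Of the other genes named microtubule-associated protein, 2 of 6 rose and 0 fell (median log2 fold change 0.15), beside 24.9% and 26.5% of all genes tested. Those that rose were MAP1LC3B, which encodes an autophagosome protein related to the light chains of MAP1 (0.38 ± 0.03), and MAP7D2, a relative of MAP7 (0.15 ± 0.03). Among proteins of the plus and minus ends, 5 of 14 rose and 2 fell (median 0.06), beside the same shares of all genes. CLIP1, a plus-end tracking protein, and CLASP2, which stabilises plus ends, rose by log2 fold changes of 0.33 ± 0.03 and 0.15 ± 0.03, and CAMSAP2 and CAMSAP3, which cap minus ends, fell by 0.41 ± 0.03 and 0.19 ± 0.05 on that scale.

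Of 15 stathmins, doublecortins, EMAPs and CRMPs tested, 4 rose and 4 fell (median log2 fold change 0.02), beside 24.9% and 26.5% of all genes tested. STMN3, a stathmin that binds free tubulin, fell by 0.79 ± 0.04 on the log2 scale, and the EMAP proteins EML3 and EML2 fell by 0.52 ± 0.05 and 0.49 ± 0.05. DCLK2, a kinase of the doublecortin family, rose by a log2 fold change of 0.64 ± 0.07. Of 14 kinases and phosphatase subunits that act on tau and its relatives, 7 rose and 3 fell (median 0.08), beside the same shares of all genes. The tau kinases TTBK2 and GSK3B rose by log2 fold changes of 0.36 ± 0.03 and 0.22 ± 0.03, and the CDK5 activator CDK5R1 and the kinase MARK4 fell by 0.34 ± 0.04 and 0.25 ± 0.05. With the length offset, MARK4 (-0.20) and MAP7D2 (0.05) lost their calls, GSK3B was at 0.12 and CLASP2 at 0.53, all in log2 fold change.

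Of 19 genes for severing of microtubules and modification of tubulin, 7 rose and 5 fell (median log2 fold change 0.02), beside 24.9% and 26.5% of all genes tested. HDAC6, the tubulin deacetylase, fell by 1.03 ± 0.04 on the log2 scale, and with the length offset by 0.50 ± 0.04. In TPM it was at 37.0 ± 0.77 in No Dox and 26.7 ± 0.86 in Dox. VASH2, which removes the terminal tyrosine of alpha tubulin, and TTLL1 and TTLL7, which add glutamate chains to tubulin, rose by log2 fold changes of 0.87 ± 0.05, 0.53 ± 0.10 and 0.47 ± 0.04.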

How the data were processed

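Stranded mRNA libraries of 6 samples were sequenced, and the authors trimmed reads with cutadapt, mapped them to GRCh38 with STAR and estimated isoforms with RSEM. For the RNA-seq, no source used here gives the versions of these 3 tools or RSEM's strand setting. The deposited expected counts are RSEM estimates per isoform, not normalized. The deposited TPM values are scaled for length and sample total. The third deposited column, in percent, divides each gene's abundance over its isoforms. It is a model estimate, and isoforms that share exons can exchange reads.

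Isoform counts were added up per gene, then rounded. Genes were tested with edgeR 4.0.16 (glmQLFTest, TMM, filterByExpr), isoforms with limma-voom (limma 3.58.1) and usage with limma diffSplice (Simes), in R 4.3.3, with DESeq2 1.42.0 as an alternative. Tests were two-sided, adjusted by Benjamini and Hochberg over all features tested, with a threshold of 0.05. The SE given with edgeR was derived from its test, as the absolute log2 fold change divided by the square root of the F statistic. The members and lists were chosen with earlier results of these data known. Isoforms were named at a mean percentage of at least 5 in a group or when called, and list genes as the up to 4 largest called changes with a mean of at least 1 TPM in a group. Patterns were compared on log2 CPM (prior count 2). Alternatives changed the tool, scaling, filter or unit, set a minimum fold, added a length offset, used replicate numbers as a block or left out single samples. The tests were tested on simulated data, in which the usage test made more false calls than its threshold allows. Human sequence and coordinates were not used here.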

Additional observations from a re-analysis of the deposited data

How the results depend on the processing

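With a minimum log2 fold change of 0.5 (edgeR), 660 genes were called in place of 9385, 3 of the other microtubule genes in place of 49, and 1 of the 9 members (MAP2) in place of 6. By limma-trend on TPM, which changes the test and the unit together, 2 members (MAP2 and MAP7) were called with a pseudocount of 1 and 2 with 0.1. Beside them, 6523 and 6564 of all 15536 genes tested that way were called. DESeq2 called 15054 isoforms in place of 9151, and 16 isoforms of the members in place of 9. Leaving out a sample gave 5518 to 6441 isoforms, with 8 to 10 of the members, and 5 to 7 member genes beside 8323 to 9278 of all genes. Usage calls went from 3386 to 1231 genes with diffSpliceDGE and to 1200 with a change of at least 10 points, and diffSpliceDGE called MAP7 (adjusted p = 0.036) besides MAP4. Scaling by library size only moved the median over all genes to 0.05 (log2) and the share of higher among called genes from 48.4% to 60.2%, and MAP1B lost its call. It called 8 plus and minus end genes higher in place of 5, and 7 of the stathmin list in place of 4, whereas the length offset called 3 and 2. With that offset the medians of the stathmin and the severing lists turned to -0.01 and -0.02.

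MAP4 reversed to -0.0750 and -0.0762 in log2 fold change with the pseudocounts of 1 and 0.1 on TPM, and to -0.11 with the length offset, which was added after seeing the data. MAP9, not called, ranged from -0.0129 to 0.0541 when single samples were left out. Isoforms that reversed were none of those called. MAP1A-202 was at -0.0132 with edgeR, -0.0149 with DESeq2 and -0.0128 with the replicate block, and MAP9-209 at 0.0190 by library size only and 0.0016 in TPM. When single samples were left out, MAP1A-202 ranged from -0.20 to 0.32, MAP9-209 from -0.13 to 0.10, MAP1S-201 from -0.0934 to 0.0120, MAP1S-212 from -0.16 to 0.50, MAP7-202 from -0.12 to 0.48, MAP7-205 from -0.0297 to 4.597, MAP9-205 from -0.0012 to 0.43 and MAPT-203 from -0.45 to 0.12. From summed expected counts in place of the deposited percentage, MAP4-207 differed by 56.0 points. The cause of these moves was not tested, other than that counts weight long isoforms.

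No source used here says that the same replicate number in both groups marks paired samples, and the values do not settle it. Deviations correlated only weakly, at 0.04, 0.03 and 0.06 for the same number and from -0.0384 to -0.0024 for different numbers. Every sample correlated best with its own number. With the number as a replicate block, edgeR called 9806 genes, 6 members and 52 other microtubule genes. The block fit gave 7249 isoforms, 10 of them of members, and 3446 genes with changed usage, 2 of them members, MAPT having lost its call (adjusted p = 0.063 by limma diffSplice). Isoforms of few counts are limited by depth, and 58 of the 110 were not tested.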
